A study of Mus musculus with 30 samples.

Results

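The genes followed here define the ends of the epithelial-mesenchymal transition: *Cdh1*, *Epcam*, *Esrp1* and *Esrp2* on the epithelial side, and *Cdh2*, *Vim*, *Snai1*, *Snai2*, *Zeb1* and *Zeb2* on the mesenchymal side. They were chosen by name, and all 10 members were found among the 29555 genes of the RNA tables. Around them, 112 of 158917 regions of open chromatin lay in the table of endoderm and stem cells, and 109 of 181059 in the table of stem cells of several strains. A region, or peak, was assigned to a gene when it lay within the gene or within 10 kb of either end.

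The cells were mouse epiblast stem cells (EpiSCs) and definitive endoderm (DE) made from them. EpiSCs at passages 5 to 10 grew on a layer of feeder cells with Fgf2, Activin A and the Wnt inhibitor NVP-TNKS656. They were lifted with collagenase, a step meant to leave feeders behind, and the share of feeder cells that remained is not known here. DE was induced with CHIR99201 (as spelled in the labels) and Activin A for 16 h, then kept in Activin A and LDN193189 for 24 h, and the CXCR4+ fraction was taken by magnetic sorting. For the whole differentiation 46 h is given elsewhere in the labels. No further treatment is given. RNA was measured in C57BL/6 EpiSCs (5 libraries) and C57BL/6 DE (4 libraries), and in EpiSCs of PWK/PhJ (3), of the B6.129 F1 cross (3) and of DBA/2J (1). Open chromatin was measured by ATAC-seq, in which a transposase cuts accessible DNA, in C57BL/6 EpiSCs (4) and DE (4) and in EpiSCs of PWK/PhJ (2) and DBA/2J (1). The labels call the replicates biological but do not say whether they are separate lines or cultures, so p-values measure only the spread between these libraries. The cells are bulk populations, so fewer cells of a type and less RNA per cell cannot be told apart.

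The epithelial-mesenchymal transition is the switch by which cells of a sheet loosen their junctions and become migratory. Cells leaving the epiblast through the primitive streak pass through it, and definitive endoderm then forms an epithelium again. The zinc-finger repressors encoded by *Snai1*, *Snai2*, *Zeb1* and *Zeb2* bind E-box sequences and repress epithelial genes such as *Cdh1*, while the splicing factors encoded by *Esrp1* and *Esrp2* keep epithelial exon choices in many transcripts.

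RNA libraries held 22829536 to 66563933 counts and ATAC libraries 3751526 to 9571127. All 6 definitive endoderm markers examined (*Sox17*, *Foxa2*, *Gata6*, *Gata4*, *Cer1*, *Cxcr4*, the last one also the target of the sort) were higher in DE, and of 6 EpiSC markers 4 were lower and 2 higher. The 12 feeder fibroblast markers, collagens among them, summed to between 82.3 and 3582 CPM (counts scaled to library size) in C57BL/6 EpiSC libraries and to between 169 and 387 CPM in DE; 10 of the 12 were lower in DE. In DE, *Lum* was at 0 in 2 libraries and *Thy1* in 1, and no feeder marker was at 0 in any EpiSC library. EpiSC replicate 51 had the highest feeder sum and replicate 1 the lowest, below every DE library. Replicate 4, the next lowest at 517 CPM, lay above every DE library. By single markers, replicate 1 lay below the DE range for 3, within it for 8 and above it for 1. *Fbln2* alone held 105 to 125 CPM in DE. The markers of mesoderm, which include the primitive streak gene *T*, summed to between 105 and 554 CPM in EpiSCs and to between 4.50 and 22.2 CPM in DE. EpiSC replicates 1 and 4, lowest in feeder markers, were the highest EpiSC libraries in mesoderm markers (554 and 332 CPM). They were also the highest in definitive endoderm markers, at 277 and 230 CPM against 26.5 to 170 CPM in the other EpiSC libraries. Comparisons with only replicates 1 and 4 therefore select on these markers as well as on feeder markers. Of 3 visceral endoderm markers tested 2 were higher in DE, where the 5 listed summed to between 3.50 and 16.1 CPM, against 0.37 to 3.79 CPM in EpiSCs; their part in the results was not tested. DE replicate 51 stood apart on chromosome 8, which carries *Cdh1* and *Esrp2*: relative to all genes, the median of 527 genes there was shifted by 0.51 log2 units from the remaining DE libraries, against -0.19 to -0.13 in those.

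In DE against EpiSCs, the repressors *Zeb1*, *Zeb2* and *Snai2* and the filament gene *Vim* fell, *Esrp2* rose, and both cadherins, *Epcam*, *Snai1* and *Esrp1* did not pass the test. By edgeR's quasi-likelihood test, with p-values adjusted by Benjamini-Hochberg over 14085 genes, 1 of the 10 genes was higher and 4 were lower at an adjusted p under 0.05. Among all genes tested 62% passed, 31.5% higher and 30.6% lower, so a count of 5 of 10 is near the background of this comparison. The groups did not overlap for 4 of the 10 genes, and for 55.6% of all genes tested. The median change of all genes was -0.01 log2 units and their median absolute change 1.03.

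**Figure D1:**
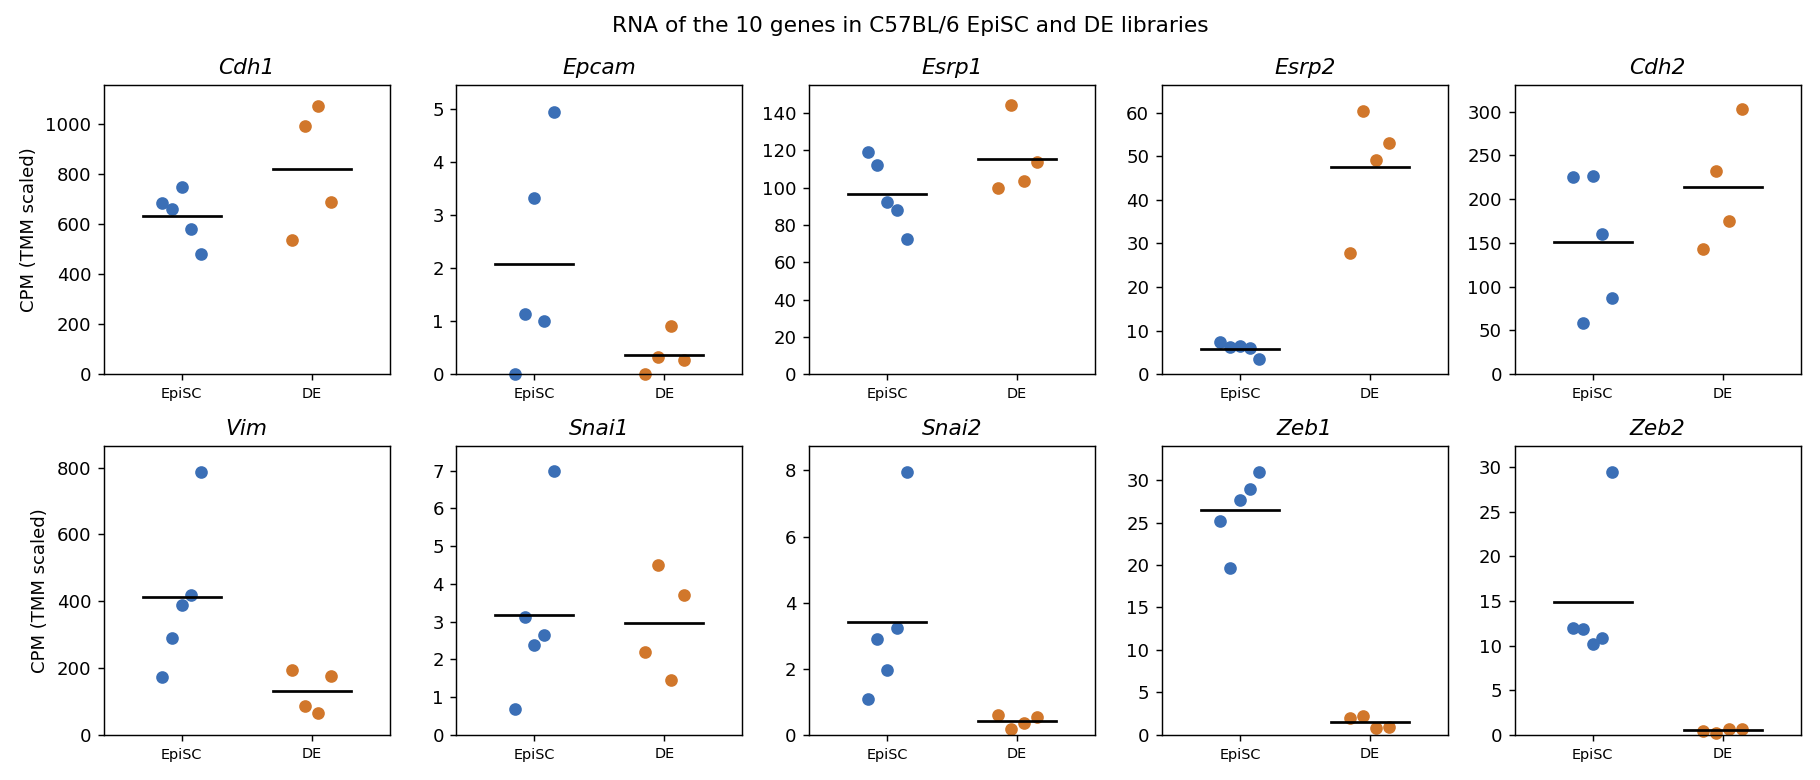
RNA level of the 10 genes (vertical axis, CPM from 0, scaled by TMM) in 5 EpiSC and 4 DE libraries of C57BL/6, with 1 point per library and a line at the group mean. The DE points lie wholly above the EpiSC points for Esrp2 and wholly below them for Snai2, Zeb1 and Zeb2.

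*Cdh1* encodes E-cadherin, the adhesion molecule of epithelial adherens junctions. Its level in EpiSC replicates 1, 2, 4, 44 and 51 was 686, 660, 749, 581 and 481 CPM. In DE replicates 2, 4, 44 and 51 it was 536, 993, 1073 and 690 CPM. DE held both the highest values and one of the lower ones, so the groups overlapped. The change was 0.38 log2 units (SE 0.22) and did not pass edgeR's quasi-likelihood test (adjusted p = 0.149). It passed only without DE replicate 2, the lowest DE library, at 0.55 log2 units (SE 0.18, adjusted p = 0.0232).

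*Epcam* encodes an epithelial adhesion molecule that is widely used as a surface marker of epithelia. Its counts were close to 0 everywhere: 0 to 134 counts per library in EpiSCs and 0 to 23 in DE. The tables do not show whether the counting assigned reads of this gene elsewhere, so its RNA values and the limits from counts of 0 hold for the counts as deposited, not for its transcripts. The levels in EpiSC replicates 1, 2, 4, 44 and 51 were 0, 1.14, 3.32, 1.00 and 4.95 CPM, and in DE replicates 2, 4, 44 and 51 they were 0, 0.315, 0.900 and 0.258 CPM. A count of 0 allows up to 0.114 CPM in that EpiSC library and up to 0.152 CPM in that DE library, counting error only. The change of -2.49 log2 units (SE 1.27) did not pass edgeR's quasi-likelihood test (adjusted p = 0.111). It passed without EpiSC replicate 1 (-2.81 log2 units, SE 0.98, adjusted p = 0.0329), and in those same 8 libraries with the replicate number as a block (-3.28 log2 units, SE 1.13, adjusted p = 0.0431). The low counts stood beside open chromatin at the gene's start: the peak at chr17:87635709-87636006 held 32.9 ± 7.5 CPM in EpiSCs and 27.0 ± 5.4 CPM in DE (SD, n = 4 each). The 250 bases before the start (RefSeq, GRCm38.p6, chr17:87635729-87635978, plus strand) lie inside that peak and are shown for the E-box CAGGTG, or CACCTG on the other strand, which is in capitals.
Epcam: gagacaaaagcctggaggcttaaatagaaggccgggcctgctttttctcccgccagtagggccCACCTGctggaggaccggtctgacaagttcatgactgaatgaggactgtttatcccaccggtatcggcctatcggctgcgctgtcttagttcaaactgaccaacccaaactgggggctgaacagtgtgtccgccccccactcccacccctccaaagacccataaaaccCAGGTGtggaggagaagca
The window held 2 such motifs, beginning 187 and 19 bases before the start. Of 32817 RefSeq promoter windows of the same length, 17.2% held at least 1.

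*Esrp1* and *Esrp2* encode the epithelial splicing regulators, and only the second passed. *Esrp2* measured 7.36, 6.132, 6.35, 6.08 and 3.40 CPM in EpiSC replicates 1, 2, 4, 44 and 51. In DE replicates 2, 4, 44 and 51 it reached 27.9, 60.4, 49.2 and 53.1 CPM. Every DE library lay above every EpiSC library. *Esrp2* rose 8.12-fold (3.02 log2 units, SE 0.28, adjusted p = 1.02e-05 by edgeR's quasi-likelihood test), and was higher in 4 of 4 DE libraries. The change was 2.87 to 3.21 log2 units with any 1 library left out, DE replicate 51 included. *Esrp1* was at 119, 112, 92.1, 88.0 and 72.4 CPM in the same EpiSC libraries and at 99.8, 144, 104 and 114 CPM in DE. Its groups overlapped, and its change of 0.25 log2 units (SE 0.18) did not pass edgeR's quasi-likelihood test (adjusted p = 0.234).

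*Cdh2* encodes N-cadherin, which mesenchymal and neural cells carry in place of E-cadherin. It measured 225, 58.7, 226, 160 and 87.1 CPM in EpiSC replicates 1, 2, 4, 44 and 51. DE replicates 2, 4, 44 and 51 held 143, 233, 175 and 303 CPM. The groups overlapped, and the change of 0.50 log2 units (SE 0.39) did not pass edgeR's quasi-likelihood test (adjusted p = 0.292). Within the 4 same-numbered pairs *Cdh2* was higher in DE each time, and its change with that number as a block was 0.81 log2 units (SE 0.33, adjusted p = 0.0738), which did not pass either. Against only EpiSC replicates 1 and 4, the libraries lowest in feeder markers, its sign turned (-0.16 log2 units, SE 0.30, adjusted p = 0.703 by edgeR's quasi-likelihood test). Those libraries were also the EpiSC libraries highest in definitive endoderm and mesoderm markers. Which of these differences the turn goes with was not tested. The log2 level of *Cdh1* minus that of *Cdh2* in the same library, a description with no correction for transcript length, was 2.23 ± 0.78 in EpiSCs (SD, n = 5) and 1.95 ± 0.59 in DE (SD, n = 4). It was highest in EpiSC replicate 2 (3.49) and lowest in DE replicate 51 (1.19).

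*Vim* encodes vimentin, the intermediate filament protein of mesenchymal cells. Its levels in EpiSC replicates 1, 2, 4, 44 and 51 were 174, 289, 390, 420 and 788 CPM, and in DE replicates 2, 4, 44 and 51 they were 196, 86.5, 64.5 and 177 CPM. EpiSC replicate 1 lay within the DE range, and the other EpiSC libraries lay above it. *Vim* fell 3.15-fold (-1.65 log2 units, SE 0.46, adjusted p = 0.00983 by edgeR's quasi-likelihood test). The EpiSC library with the lowest feeder sum had the lowest *Vim* and that with the highest sum the highest. Against only EpiSC replicates 1 and 4, *Vim* was at -1.18 log2 units (SE 0.49) and no longer passed edgeR's quasi-likelihood test (adjusted p = 0.0863). That fit has fewer libraries, and in it calls over all genes fell from 62% to 40.5%, so the lost call alone does not point to feeder RNA. The part of feeder RNA in its change was not tested beyond this. The 250 bases before the *Vim* start (RefSeq, GRCm38.p6, chr2:13574061-13574310, plus strand), part of which lies in a further peak at chr2:13574140-13574316, hold no CAGGTG or CACCTG and are shown for comparison with the *Epcam* window.
Vim: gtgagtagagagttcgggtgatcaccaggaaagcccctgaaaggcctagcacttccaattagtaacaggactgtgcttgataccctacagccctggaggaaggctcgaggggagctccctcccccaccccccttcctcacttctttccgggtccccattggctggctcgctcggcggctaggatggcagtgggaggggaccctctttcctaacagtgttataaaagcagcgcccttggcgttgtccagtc

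*Snai1* and *Snai2* encode the Snail and Slug repressors, which act early in the transition at the primitive streak and in neural crest. *Snai2* was low throughout, at 1.10, 2.89, 1.95, 3.24 and 7.94 CPM in EpiSC replicates 1, 2, 4, 44 and 51 and at 0.610, 0.166, 0.352 and 0.546 CPM in DE replicates 2, 4, 44 and 51. All DE libraries lay below all EpiSC libraries. *Snai2* fell 8.22-fold (-3.04 log2 units, SE 0.69, adjusted p = 0.00296 by edgeR's quasi-likelihood test). Its EpiSC levels were lowest and highest in the libraries with the lowest and highest feeder sums. Its change against only EpiSC replicates 1 and 4 was -1.94 log2 units (SE 0.83) and did not pass edgeR's quasi-likelihood test (adjusted p = 0.0967). In that smaller fit 40.5% of all genes passed, against 62% in the main one. The part of feeder RNA in the *Snai2* change was not tested.

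*Snai1* measured 0.683, 3.12, 2.38, 2.65 and 6.98 CPM in the same EpiSC libraries and 2.19, 4.51, 1.45 and 3.72 CPM in the DE libraries. The DE values lay inside the EpiSC range. The EpiSC levels of *Snai1*, too, were lowest and highest in the libraries with the lowest and highest feeder sums. Its change was -0.09 log2 units (SE 0.60, adjusted p = 0.907 by edgeR's quasi-likelihood test), and against only EpiSC replicates 1 and 4 it turned to 0.88 (SE 0.76, adjusted p = 0.384). Its start-site peak, chr2:167537923-167538239, held 34.8 ± 4.1 CPM in EpiSCs and 35.6 ± 7.8 CPM in DE (SD, n = 4 each). The 250 bases before the *Snai1* start (RefSeq, GRCm38.p6, chr2:167537945-167538194, plus strand) lie inside this peak, and the single CACCTG, 126 bases before the start, is in capitals.
Snai1: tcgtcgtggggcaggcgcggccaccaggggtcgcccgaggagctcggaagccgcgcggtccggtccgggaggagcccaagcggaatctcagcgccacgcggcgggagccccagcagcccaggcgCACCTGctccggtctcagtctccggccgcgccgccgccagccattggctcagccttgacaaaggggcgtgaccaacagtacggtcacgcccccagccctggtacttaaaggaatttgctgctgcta

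*Zeb1* and *Zeb2* encode the large zinc-finger homeobox repressors, and they showed the largest decreases of the 10 genes. *Zeb1* was at 25.1, 19.7, 27.6, 29.0 and 30.9 CPM in EpiSC replicates 1, 2, 4, 44 and 51 and at 1.98, 2.19, 0.861 and 0.925 CPM in DE replicates 2, 4, 44 and 51. Every DE library lay far below every EpiSC library, and *Zeb1* fell 17.8-fold (-4.15 log2 units, SE 0.35, adjusted p = 6.16e-06 by edgeR's quasi-likelihood test). *Zeb2* was at 11.99, 11.8, 10.1, 10.8 and 29.4 CPM in the EpiSC libraries and at 0.458, 0.249, 0.626 and 0.637 CPM in DE. The groups were again apart, with EpiSC replicate 51 well above the other EpiSC libraries. *Zeb2* fell 30.1-fold (-4.91 log2 units, SE 0.49, adjusted p = 1.74e-05 by edgeR's quasi-likelihood test). EpiSC replicate 1, with the lowest feeder sum, held 25.1 CPM of *Zeb1* and 11.99 CPM of *Zeb2*. That sum lay below every DE library, but single markers differed. Replicate 1 was below the DE range for 3 markers, within it for 8 and above it for 1 (*Thy1*, 7.97 against at most 0.153 CPM). The changes against only those 2 libraries lowest in feeder markers, EpiSC replicates 1 and 4, were -4.22 log2 units for *Zeb1* (SE 0.47, adjusted p = 0.000759) and -4.56 for *Zeb2* (SE 0.54, adjusted p = 0.000895), both by edgeR's quasi-likelihood test. The part of feeder RNA in these changes was not tested beyond these values. The antisense gene *Zeb2os* overlaps the start of *Zeb2*; whether the counting used the strand is not given in the sources used here, and without strand their reads cannot be told apart.

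**Figure D2:**
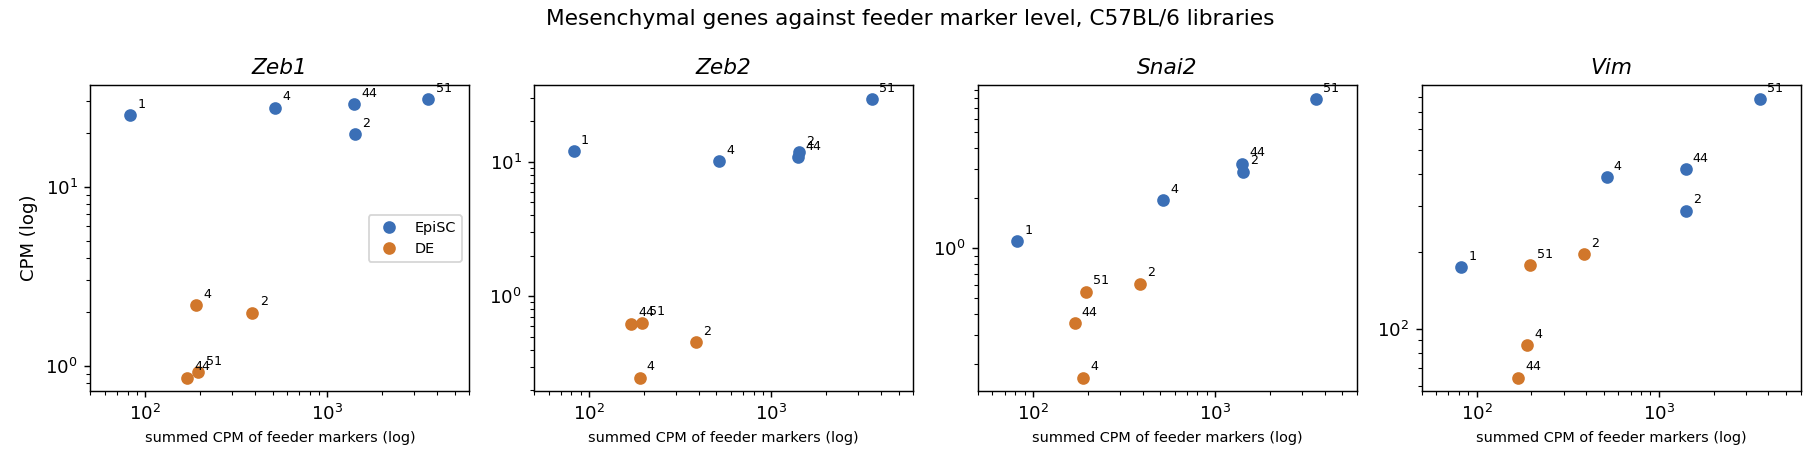
Level of Zeb1, Zeb2, Snai2 and Vim (vertical axis, CPM, log scale) against the summed level of 12 feeder markers (horizontal axis, CPM, log scale) in the C57BL/6 libraries, with replicate numbers beside the points. EpiSC replicate 1, with the lowest feeder sum at 82.3 CPM, lies near the other EpiSC libraries for Zeb1 and Zeb2 and near the highest DE libraries for Vim.

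**Figure D3:**
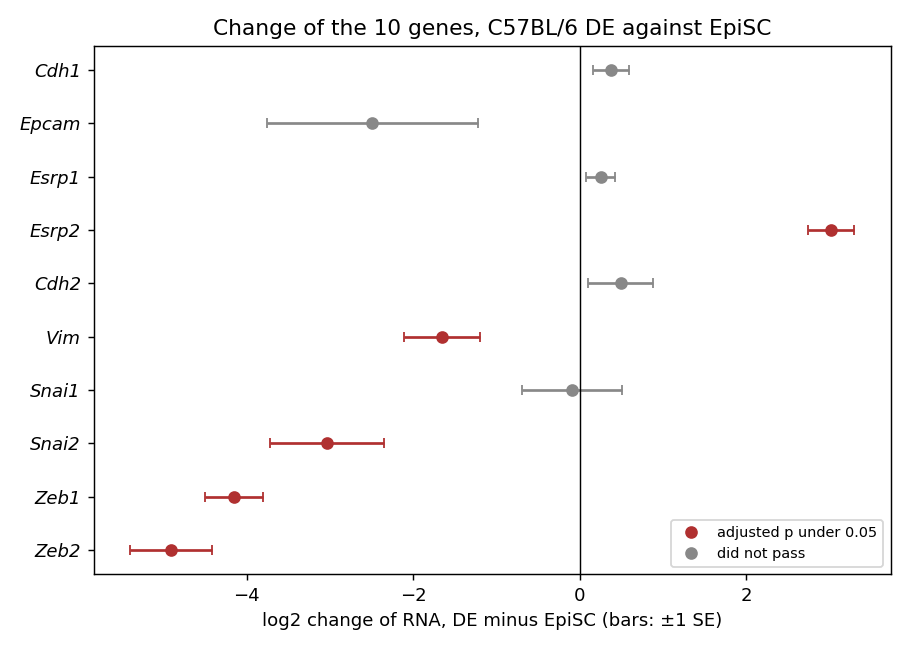
Change of RNA in C57BL/6 DE against EpiSCs (horizontal axis, log2 units; bars are 1 SE on each side) for the 10 genes, in red where the adjusted p was under 0.05. Zeb2 at -4.91 and Esrp2 at 3.02 mark the ends of the range.

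Over the 9 C57BL/6 libraries, the genes whose log2 CPM followed *Cdh1* most closely among 9804 genes included *Sec24c* (Pearson r = 0.950) and *March8* (0.930). Those closest to *Cdh2* were *Ptprt* (0.973), *Greb1l* (0.935) and *Efcab11* (0.923). These values describe likeness across 9 libraries of 2 cell states that share their group differences and depth.

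Other genes of the transition were taken from 9 lists. Their counts stand beside the 62% of all genes that passed, 31.5% higher and 30.6% lower, and no list was tested against other genes. Against only EpiSC replicates 1 and 4, calls fell over all genes too, to 40.5% of 14659. Of 11 other transcription factors of the transition, 3 rose, 4 fell and 4 did not pass. *Gsc*, the organizer gene goosecoid, rose from a mean of 7.06 to 559 CPM (6.30 log2 units, SE 0.70), and *Tcf3* and *Sox4* rose by 1.37 and 1.30 log2 units. *Prrx1*, a mesenchymal homeobox gene, fell from 20.5 to 1.10 CPM (-4.28 log2 units, SE 0.89), and *Sox9* and *Klf8* changed by -1.70 and -1.42 log2 units. The list's median change was -1.02 log2 units, and against only EpiSC replicates 1 and 4 3 rose and 2 fell of 10 tested.

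Of the 8 epithelial transcription factors tested (of 11 listed; *Ovol1*, *Elf5* and *Trp63* were too low to test), 5 rose, none fell and 3 did not pass, with a median of 1.85 log2 units. *Ovol2*, which encodes a repressor of *Zeb1* in epithelia, rose from 2.69 to 147 CPM (5.77 log2 units, SE 0.26). The grainyhead factor gene *Grhl3* rose from 3.73 to 73.1 CPM (4.29 log2 units, SE 0.34), and *Ehf* from 1.37 to 21.7 CPM (3.98 log2 units, SE 0.74). All 3 passed edgeR's quasi-likelihood test after adjustment over all genes, with adjusted p-values of 3.37e-07, 3.87e-06 and 0.000933. Against only EpiSC replicates 1 and 4, 5 rose and 1 fell of 9 tested.

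Of 25 epithelial junction and polarity genes tested, 8 rose, 6 fell and 11 did not pass, with a median of 0.40 log2 units. The polarity genes *Llgl2* and *Crb3* rose by 2.58 and 2.57 log2 units, and the junctional adhesion gene *F11r* by 1.79. *Cldn4*, a claudin gene, changed by -3.64 log2 units, *Tjp1*, which encodes the tight junction scaffold ZO-1, by -2.24, and *Marveld3* by -1.68. Against only EpiSC replicates 1 and 4, 6 rose and 3 fell.

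Of 11 catenin, nectin and adaptor genes, partners of the cadherins, 1 rose, 7 fell and 3 did not pass, with a median of -1.44 log2 units. Against only EpiSC replicates 1 and 4, 1 rose and 6 fell. *Nectin1* fell from 97.6 to 2.69 CPM (-5.17 log2 units, SE 0.41), *Nectin3* by 1.91 log2 units and the p120 catenin gene *Ctnnd1* by 1.44. *Nectin2* rose by 1.45 log2 units. The catenin genes *Ctnnb1* and *Ctnna1* did not pass, at 0.31 and 0.22 log2 units. Of 6 Epcam partners and epithelial surface protease genes tested, 3 rose (*Spint2* by 2.78 log2 units, *Prss8* by 2.05 and the tetraspanin gene *Cd9* by 1.92) and 1 fell (*Cd44*, -3.90 log2 units).

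Of 18 mesenchymal adhesion and cytoskeleton genes, 2 rose, 10 fell and 6 did not pass, with a median of -1.66 log2 units. The matrix gene *Tnc* fell from 697.9 to 13.4 CPM (-5.71 log2 units, SE 0.94), and *S100a4* from 4.21 to 0.350 CPM. The actin bundler gene *Fscn1* and the membrane protease gene *Mmp14* rose by 1.77 and 1.11 log2 units. With only EpiSC replicates 1 and 4, 2 rose and 5 fell of 17 tested. Fibroblasts express many genes of this list, and the feeder sum was lower in DE than in 4 of the 5 EpiSC libraries; its part in these counts was not tested beyond this.

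Among 8 intermediate filament genes 3 rose and 3 fell. The simple-epithelial keratin genes *Krt8*, *Krt18* and *Krt7* rose from 121 to 2039, from 99.8 to 1456 and from 7.48 to 189 CPM (4.07, 3.87 and 4.65 log2 units). *Nes*, the nestin gene, fell from 499 to 10.5 CPM (-5.55 log2 units, SE 0.53), and *Synm* and *Des* changed by -1.85 and -1.14 log2 units.

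Of 9 other splicing regulators of exons that change in the transition, 2 rose and 7 fell, with a median of -0.84 log2 units. *Rbfox2* fell from 130 to 23.7 CPM (-2.45 log2 units, SE 0.15), and *Mbnl2* and *Mbnl1* changed by -1.27 and -1.13 log2 units. *Rbm47* rose by 1.76 and *Hnrnpm* by 0.51 log2 units. With only EpiSC replicates 1 and 4, 2 rose and 3 fell. Of 9 signal and receptor genes tested, 3 rose and 4 fell. *Fgf8* rose from 16.7 to 808 CPM (5.59 log2 units, SE 0.45). The receptor genes moved in opposite directions, *Fgfr2* from 4.25 to 41.7 CPM (3.29 log2 units, SE 0.29) and *Fgfr1* from 215 to 26.1 CPM (-3.04 log2 units, SE 0.50). *Tgfb2* rose by 1.59 log2 units, and *Tgfb3* and *Met* changed by -3.92 and -1.39. With only EpiSC replicates 1 and 4, 2 rose and 2 fell.

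Near the 10 genes more peaks were higher in DE than lower, and *Cdh1* and *Cdh2* held most of the higher ones. Of 112 nearby peaks 93 were tested: 45 were higher, 16 lower and 32 did not pass edgeR's quasi-likelihood test adjusted over 113870 peaks. The cadherin genes held 29 higher and 3 lower peaks, and the remaining 8 genes 16 higher and 13 lower. Of all peaks tested 57.6% passed, 32.6% higher and 25.0% lower, and 53.8% had groups that did not overlap. The median change near the 10 genes was 0.59 log2 units, against -0.01 over all peaks. With total library size as the scaling, which moved the median of all peaks to -0.22 log2 units, 42 nearby peaks were higher and 25 lower, so the higher share of the calls went from 73.8% to 62.7%. Without DE replicate 51 it was 62.9%.

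**Figure D4:**
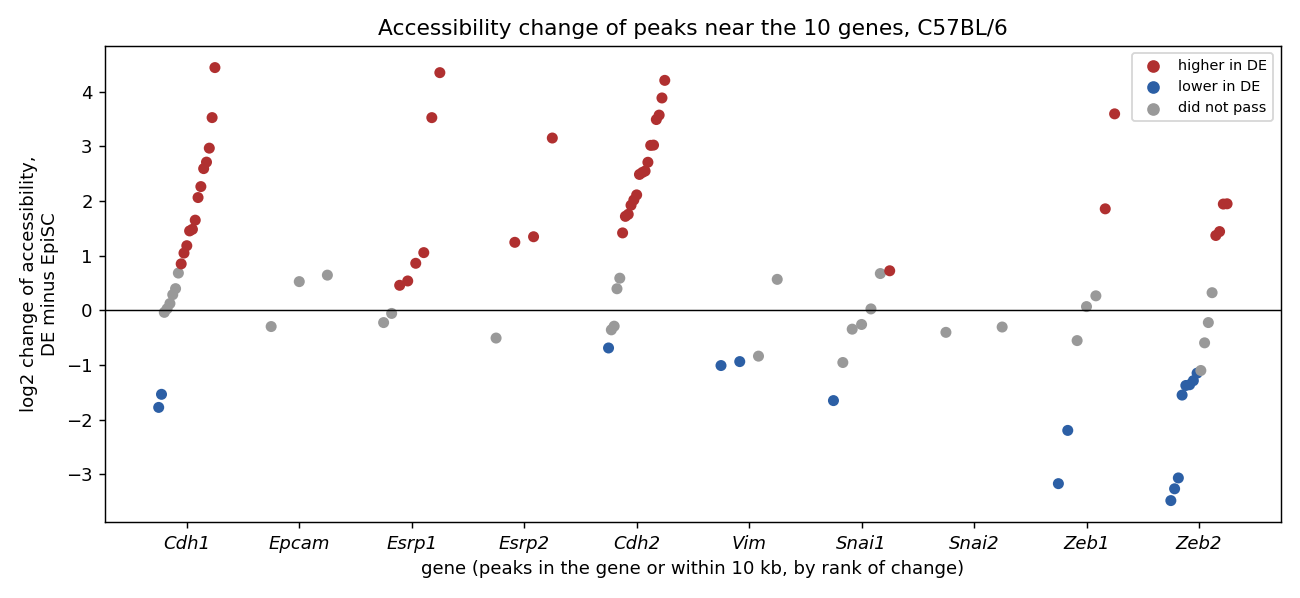
Change of accessibility in C57BL/6 DE against EpiSCs (vertical axis, log2 units) for the tested peaks within or near each of the 10 genes, 1 point per peak, ordered by size within a gene. Points above 0 in red passed as higher, points below 0 in blue as lower; Cdh1 and Cdh2 hold 13 and 16 higher peaks, and Zeb2 holds 8 lower ones.

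Both cadherin genes, whose RNA did not pass, carried many peaks that gained accessibility. Of 21 *Cdh1* peaks tested 13 were higher and 2 lower. The peak at its end nearest the lower coordinate, chr8:106603187-106603475, held 21.5 ± 4.8 CPM in EpiSCs and 28.5 ± 4.3 CPM in DE (SD, n = 4 each) and did not pass (0.40 log2 units, SE 0.18, adjusted p = 0.0727 by edgeR's quasi-likelihood test). Within the gene, chr8:106621699-106621909 held 0.960, 0.401, 1.79 and 0.620 CPM in EpiSC replicates 1, 4, 44 and 51 and 16.3, 20.2, 18.9 and 17.6 CPM in DE replicates 2, 4, 44 and 51. It was almost closed in all EpiSC libraries and open in all DE libraries, a rise of 4.44 log2 units (SE 0.35, adjusted p = 3.37e-09 by edgeR's quasi-likelihood test). The peak at chr8:106618433-106618643, about 3 kb away, went the other way, from 9.62 ± 2.8 to 3.28 ± 0.50 CPM (SD, n = 4 each; -1.54 log2 units, SE 0.31). The chromosome 8 shift of DE replicate 51 was also present in ATAC, at 0.47 log2 units over 3256 peaks, and without any 1 library the rise at 106621699 stayed between 4.02 and 4.75 log2 units.

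Of 21 *Cdh2* peaks tested 16 were higher and 1 was lower, with a median of 2.11 log2 units. The strongest rise by p, chr18:16675200-16675512 within the gene, went from 4.00, 5.41, 2.55 and 5.11 CPM in EpiSC replicates 1, 4, 44 and 51 to 28.4, 22.2, 27.6 and 20.8 CPM in DE replicates 2, 4, 44 and 51. The groups did not overlap (2.49 log2 units, SE 0.24, adjusted p = 4.61e-08 by edgeR's quasi-likelihood test). The single lower peak, chr18:16808440-16808632, lay 614 bases from the gene's end with the higher coordinate, and changed from 11.5 ± 1.3 to 7.21 ± 1.3 CPM (SD, n = 4 each; -0.69 log2 units, SE 0.25). That call was lost in the 6 ATAC libraries with shared numbers by edgeR's quasi-likelihood test. Adjusted p was 0.104 with the replicate block and 0.0726 without it.

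The splicing regulator genes had higher peaks and no lower ones: 3 of 4 tested at *Esrp2* and 6 of 8 at *Esrp1*. The peak at chr8:106135026-106135463, within *Esrp2* and 1730 bases from its end with the higher coordinate, held 4.00, 6.91, 5.10 and 5.27 CPM in EpiSC replicates 1, 4, 44 and 51. In DE replicates 2, 4, 44 and 51 it held 50.4, 54.5, 35.9 and 52.8 CPM. The groups were far apart (8.89-fold, 3.15 log2 units, SE 0.20, adjusted p = 3.09e-10 by edgeR's quasi-likelihood test). The gene 1810019D21Rik also starts or ends within 2 kb of this peak. At *Esrp1*, chr4:11326536-11326748, 5185 bases outside the gene, rose from 0.405 ± 0.50 to 7.89 ± 3.2 CPM (SD, n = 4 each; 4.35 log2 units, SE 0.61; 3.73 to 4.79 with any 1 library left out), while its end-site peak chr4:11386629-11387062 rose by 0.54 log2 units (SE 0.21, adjusted p = 0.0379 by edgeR's quasi-likelihood test). The latter lost its call without any 1 of 6 libraries and by DESeq2.

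At *Zeb2*, 8 of 16 tested peaks were lower and 4 higher, with a median of -1.13 log2 units. The peak chr2:45037660-45037908, within the gene, held 17.0, 12.7, 12.8 and 29.1 CPM in EpiSC replicates 1, 4, 44 and 51 and 1.65, 1.65, 1.72 and 2.59 CPM in DE replicates 2, 4, 44 and 51. All DE libraries lay below all EpiSC libraries, and replicate 51 was the highest in each group (-3.27 log2 units, SE 0.34, adjusted p = 9.60e-08 by edgeR's quasi-likelihood test). The peak with the highest level within 2 kb of a start, chr2:45111083-45111315, fell from 11.5 ± 3.4 to 4.42 ± 0.98 CPM (SD, n = 4 each; -1.38 log2 units, SE 0.29), and chr2:45057055-45057341 rose from 2.07 ± 0.93 to 8.24 ± 1.6 CPM (1.95 log2 units, SE 0.37). RefSeq gives 4 start windows for *Zeb2*, and none held CAGGTG or CACCTG in its 250 bases.

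*Zeb1* showed 2 higher and 2 lower peaks of 7 tested beside its 17.8-fold lower RNA. The peak at chr18:5711885-5712169 fell from 13.0 ± 1.6 to 2.77 ± 1.1 CPM (SD, n = 4 each; -2.20 log2 units, SE 0.30), and chr18:5737261-5737415 rose from 0.410 ± 0.50 to 6.19 ± 0.33 CPM (3.59 log2 units, SE 0.57). The second was at 0 counts in EpiSC replicates 44 and 51, and its change was 2.98 log2 units without EpiSC replicate 51 and 4.50 without EpiSC replicate 4. The peak near its end with the lower coordinate, chr18:5591599-5591757, did not pass (4.69 ± 1.6 against 5.74 ± 0.82 CPM, adjusted p = 0.503 by edgeR's quasi-likelihood test). The gene Gm10125 lies within 2 kb of that peak.

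At *Vim*, 2 of 4 tested peaks were lower. The peak chr2:13573535-13573952, which ends 359 bases before the start, held 33.1, 29.1, 27.0 and 25.4 CPM in EpiSC replicates 1, 4, 44 and 51 and 11.5, 18.1, 13.2 and 17.3 CPM in DE replicates 2, 4, 44 and 51. The groups did not overlap (-0.94 log2 units, SE 0.19, adjusted p = 0.000203 by edgeR's quasi-likelihood test). EpiSC replicate 1 was the highest here, and with only EpiSC replicates 1 and 4 the change was -1.18 log2 units (SE 0.21). Those 2 numbers were picked by feeder markers in RNA. The feeder content of the ATAC libraries, and its part in this change, was not tested.

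*Snai1*, *Epcam* and *Snai2* held few peaks that passed. Of 7 *Snai1* peaks tested 1 was higher (chr2:167540153-167540423, 0.72 log2 units, SE 0.22) and 1 lower (chr2:167543391-167543520, -1.65 log2 units, SE 0.49). The first lost its call without DE replicate 4 (adjusted p = 0.088 by edgeR's quasi-likelihood test) and under total library size scaling. In the 6 ATAC libraries with shared numbers neither passed the same edgeR test. Adjusted p was 0.0878 and 0.114 with the replicate block, and 0.0577 and 0.0748 without it. None of the 3 *Epcam* and 2 *Snai2* peaks tested passed edgeR's quasi-likelihood test. The *Snai2* peak chr16:14705755-14705974 held 19.6 ± 3.9 CPM in EpiSCs and 14.8 ± 1.9 CPM in DE (SD, n = 4 each). Its change was -0.40 log2 units (SE 0.20, adjusted p = 0.0945 by the same test). It passed without EpiSC replicate 1, EpiSC replicate 51 or DE replicate 51, and under total library size scaling. The *Epcam* start peak, not called at -0.30 log2 units (SE 0.18), passed as lower by edgeR's quasi-likelihood test under several alternatives. These were leaving out DE replicate 2 (-0.52 log2 units, adjusted p = 0.0295) and total library size scaling (-0.51, adjusted p = 0.0214). In the 6 libraries with shared numbers it passed with the replicate block (adjusted p = 0.0365) and without it (adjusted p = 0.0497).

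Among EpiSCs of different backgrounds, *Snai1*, *Snai2*, *Zeb2* and *Vim* were higher in PWK/PhJ than in the B6.129 F1 cross. In this comparison 40.0% of 14822 genes passed, 20.7% higher, and 4 of the 10 genes did, a count at the background. With only these groups in the fit 5 passed, the fifth being *Cdh2*, lower in PWK/PhJ (-0.69 log2 units, SE 0.09, adjusted p = 0.000525 by edgeR's quasi-likelihood test). *Snai1* was at 4.97, 5.17 and 6.135 CPM in PWK/PhJ and at 1.18, 1.49 and 0.606 CPM in the F1 (2.30 log2 units, SE 0.66, adjusted p = 0.0178 by edgeR's quasi-likelihood test). *Snai2* was at 7.16, 8.80 and 7.28 against 1.91, 0.817 and 1.21 CPM (2.56 log2 units, SE 0.63, adjusted p = 0.00920 by the same edgeR test). For both genes all PWK/PhJ libraries lay above all F1 libraries.

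*Zeb2* was at 26.8, 18.1 and 18.8 CPM in PWK/PhJ and at 9.23, 6.21 and 5.17 CPM in the F1 (1.63 log2 units, SE 0.41, adjusted p = 0.0108 by edgeR's quasi-likelihood test). *Vim* was at 639, 603 and 648 against 208, 169 and 172 CPM (1.78 log2 units, SE 0.43, adjusted p = 0.00886 by edgeR's quasi-likelihood test). The groups did not overlap for these genes either, which is the case for 62.5% of all genes tested. *Snai1* lost its call without F1 replicate 4 (adjusted p = 0.0535) or without the unnumbered F1 library (adjusted p = 0.0696), and *Zeb1* gained one without F1 replicate 4 (1.03 log2 units, adjusted p = 0.00651), all by edgeR's quasi-likelihood test. All 12 feeder markers were also higher in PWK/PhJ, where they summed to between 3018 and 3868 CPM, against 170 to 274 CPM in the F1. Of the 18 mesenchymal adhesion and cytoskeleton genes, 15 were higher in PWK/PhJ and none lower, with a median of 2.13 log2 units. The part of feeder RNA in these differences was not tested.

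**Figure D5:**
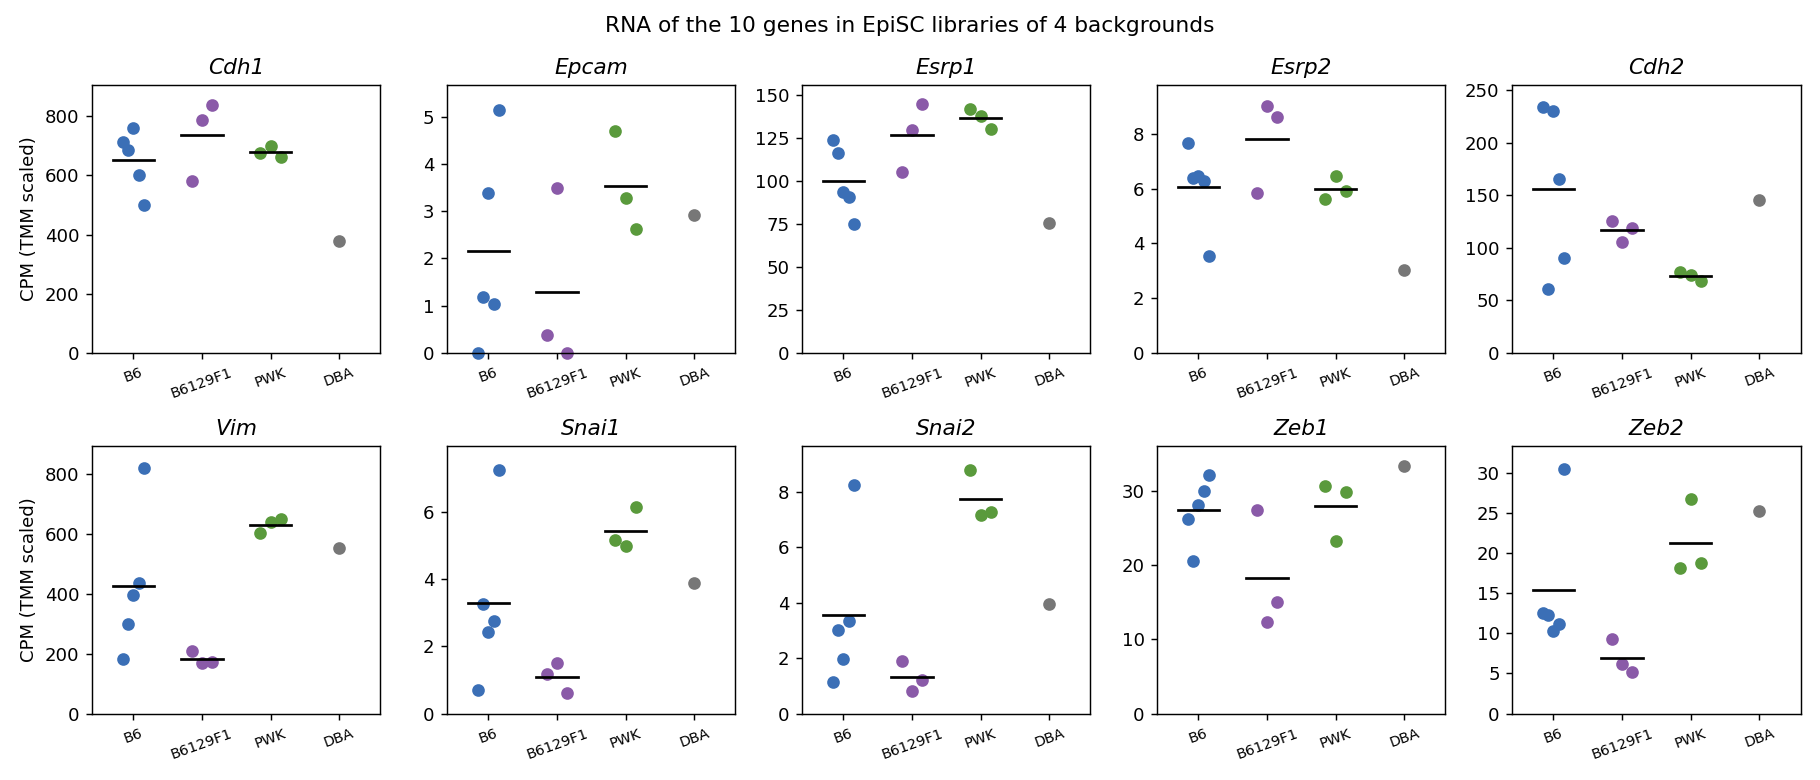
RNA level of the 10 genes (vertical axis, CPM from 0, scaled by TMM) in EpiSC libraries of C57BL/6 (5), the B6.129 F1 cross (3), PWK/PhJ (3) and DBA/2J (1), with 1 point per library and a line at the mean of groups with more than 1. The PWK/PhJ points of Snai1, Snai2, Zeb2 and Vim all lie above the F1 points, and 1 C57BL/6 point of Zeb2, at 30.5 CPM, lies above all others.

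Against C57BL/6, none of the 10 genes passed in PWK/PhJ, where 26.5% of 14822 genes did. An unadjusted p under 0.05 by edgeR's quasi-likelihood test was found for 2, and DESeq2 called those same 2. The shares of all genes at that cut and by DESeq2 are not given here, and 26.5% is not a background for these counts. *Cdh2* was at 74.1, 76.7 and 68.2 CPM in PWK/PhJ, near the low end of the C57BL/6 range of 61.02 to 234 CPM (-1.10 log2 units, SE 0.39, adjusted p = 0.0641 by edgeR's quasi-likelihood test). *Esrp1* was at 138, 142 and 130 CPM, above the C57BL/6 range of 75.2 to 124 CPM (0.45 log2 units, SE 0.15, adjusted p = 0.0523 by edgeR's quasi-likelihood test). Without C57BL/6 replicate 51, the library highest in feeder markers, 4 passed: *Cdh2* at -1.24 log2 units, *Snai2* at 1.71, *Zeb2* at 0.88 and *Vim* at 0.94. Over all genes 3923 passed in the main fit, and 2446 to 4904 did with 1 library left out. The share in the fit without replicate 51 is not given here, so the count of 4 has no background beside it. The log2 level of *Cdh1* minus that of *Cdh2* was 3.22 ± 0.07 in PWK/PhJ (SD, n = 3), 2.64 ± 0.38 in the F1 (SD, n = 3) and 1.37 in the DBA/2J library, against 2.23 ± 0.78 in C57BL/6 (SD, n = 5).

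The F1 cross also showed 0 of 10 genes passing against C57BL/6 by edgeR's quasi-likelihood test, where 2.84% of all genes passed, 1.5% lower. That background is unstable: 421 genes passed, and 0 (without the unnumbered F1 library) to 1952 (without C57BL/6 replicate 1) did with 1 library left out. At an unadjusted p under 0.05 there were 6, and DESeq2 called 3: *Snai1* (-1.57 log2 units), *Zeb2* (-1.15) and *Vim* (-1.21), all lower in the F1. The shares of all genes at that cut and by DESeq2 are not given here, and 2.84% is not a background for these counts. Without C57BL/6 replicate 1, the library lowest in feeder markers, edgeR called *Snai1* at -1.79 and *Vim* at -1.37 log2 units. These 3 comparisons of backgrounds share libraries and are given side by side only.

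The single DBA/2J library has no replicate. *Cdh1* at 379 CPM and *Esrp2* at 3.02 CPM lay below the C57BL/6 ranges of 499 to 762 and 3.53 to 7.66 CPM, *Zeb1* at 33.3 CPM lay above 20.5 to 32.1 CPM, and the other 7 genes lay within the C57BL/6 range. Only *Esrp2* differed from the C57BL/6 mean by more than 1 log2 unit (-1.01), which 8.11% of 12795 genes did.

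Between PWK/PhJ and C57BL/6 EpiSCs, 1 peak near the 10 genes differed in accessibility. Of 109 nearby peaks 96 were tested, and 1 passed, as lower, edgeR's quasi-likelihood test with adjustment over 137667 peaks, of which 5.11% passed (1.42% higher, 3.68% lower). Of all peaks 7030 passed, and with 1 library left out 3632 (without C57BL/6 replicate 4) to 6781 did. There were 14 at an unadjusted p under 0.05, and DESeq2 called 1. The shares of all peaks at that cut and by DESeq2 are not given here, and 5.11% is not a background for these counts. The peak that passed lay 3763 bases outside *Esrp2* at chr8:106140956-106141066. It held 10.4, 10.1, 17.5 and 14.3 CPM in C57BL/6 replicates 1, 4, 44 and 51 against 6.24 and 4.62 CPM in PWK/PhJ. The PWK/PhJ libraries lay below the others, and 26.3% of all peaks tested had groups that did not overlap (-1.26 log2 units, SE 0.33, adjusted p = 0.0368 by edgeR's quasi-likelihood test). The call was lost without any 1 of the C57BL/6 libraries or without the unnumbered PWK/PhJ library (adjusted p 0.0589 to 0.212), and the DBA/2J library held 9.42 CPM there. Per the submitters' processing notes the build was mm10, and the effect of PWK/PhJ sequence differences on these counts was not tested.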

How the data were processed

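Whole-number counts per gene (16 RNA samples) and per peak (11 ATAC samples) were deposited by the authors. Per the submitters' processing notes, RNA was processed with Salmon, featureCounts and DESeq2 and ATAC with fastp, Bowtie2, MACS2, featureCounts and DESeq2 on mm10, with no versions or strand setting. The labels' protocols describe stranded poly(A) libraries. Of 30 samples 27 had a column, 3 of them matched only to their group; PWK/PhJ DE is not analysed here, and 17 further columns were not used. Whether peak starts count from 0 or 1 is not given in the sources used here.

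Counts were fitted with edgeR 4.0.16 in R 4.3.3 (TMM scaling, filterByExpr, robust quasi-likelihood test) over each whole table, with Benjamini-Hochberg adjustment and a threshold of 0.05. C57BL/6 DE and EpiSCs formed one RNA fit, and 3 EpiSC backgrounds another. Levels are CPM, a count divided by the TMM-scaled library total and expressed per 1000000 counts. The script was tested on simulated counts. The 10 genes, the lists and the tests were chosen with earlier results of these data known. Named are all 10 genes, up to 3 called genes per list and direction by size of change (mean log2 CPM of at least 1), each gene's strongest peak near its start or end and its called peak of smallest p per direction, and the 3 genes most like each cadherin. Of the genes this rule names, 2 are not reported here. Gene positions are from RefSeq GRCm38.p6; of 10 genes 4 had a promoter sequence. Same-numbered RNA libraries deviated together (correlations 0.145, 0.161, 0.349 and 0.429 over 7043 genes), so numbers were taken as pairs in the replicate block. The main tests did not use these pairs. Alternatives were DESeq2 1.42.0, other scalings, filters and windows, a replicate block and single libraries left out.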

Additional observations from a re-analysis of the deposited data

Results flagged for a closer look

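Among 71 groups of 4 or 5 libraries examined, 2 held a library that stood far from the others; chance alone picks out about 1 in 20 groups. Both concern *Zeb2* and replicate 51. In C57BL/6 EpiSC RNA, replicate 51 held 29.4 CPM of *Zeb2* and the other 4 libraries 10.1 to 11.99 CPM; it was also the library highest in feeder markers, and their part in the value was not tested. In C57BL/6 DE, the *Zeb2* peak chr2:45037660-45037908 held 2.59 CPM in replicate 51 and 1.65 to 1.72 CPM in the other libraries.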

How the results depend on the processing

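No called value changed direction under any alternative. In DE against EpiSCs, 5 genes passed; 3 did when at least 10 counts were required in every library (7 of the 10 genes tested) and 3 with only EpiSC replicates 1 and 4, an alternative chosen after seeing the data, where 40.5% of all genes passed against 62%. Near the 10 genes 61 peaks passed of 93 tested. With at least 10 counts in every library 28 did (51 tested), and within 50 kb of the genes 92 did (148 tested). The 50 kb window used the main fit, in which 57.6% of all peaks passed, so 92 of 148 is near that background. Shares of all genes or peaks under the count filter, the other scalings and DESeq2 are not given here, so counts under those settings have no background beside them. In PWK/PhJ against C57BL/6, where 0 genes passed, 1 did with RLE scaling, with total library size as the scaling and with at least 10 counts in every library (*Esrp1* each time), 2 by DESeq2, and 0 to 4 with single libraries left out. In the F1 against C57BL/6, where 0 passed, 3 did by DESeq2 and 0 to 2 with single libraries left out. Of PWK/PhJ peaks, where 1 passed, 2 did with total library size as the scaling, 0 within 2 kb, 3 within 50 kb and 0 to 1 with single libraries left out; without C57BL/6 replicate 51 the 1 called peak was a higher one. With the RNA replicate block 6 genes passed, as in the same 8 libraries without it; the block itself changed no call, and *Epcam* passed in both once EpiSC replicate 1 was left out. ATAC numbers did not pair the samples (correlations 0.026, 0.011 and 0.072, with 1 of 3 best with its own number); with that block 51 nearby peaks passed, against 57 in the same 6 libraries without it. In DE libraries 0 to 23 counts of *Epcam*, 9 to 36 of *Snai2* and 9 to 42 of *Zeb2* limit the precision for these genes, the *Zeb2* fold included.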

Other observations

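The miR-200 microRNAs and *Zeb1* and *Zeb2* are known to repress each other in epithelial cells. Poly(A) RNA does not measure mature microRNAs, but peaks lay near both mouse clusters; these peaks were looked at after other values were seen. The mature sequences (RefSeq, GRCm38.p6) fall into 2 seed groups, with bases 2 to 8 in capitals.
mmu-miR-200b-3p: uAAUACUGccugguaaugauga
mmu-miR-200c-3p: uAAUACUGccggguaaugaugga
mmu-miR-429-3p: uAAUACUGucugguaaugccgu
mmu-miR-200a-3p: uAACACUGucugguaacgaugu
mmu-miR-141-3p: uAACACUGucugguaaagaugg

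Of 4 peaks tested within 10 kb of the Mir200c and Mir141 cluster (chr6:124717914-124718390), 2 were higher in DE. The peak chr6:124719522-124719601 went from 0.254 to 2.99 CPM (3.27 log2 units, SE 0.63, adjusted p = 0.000142 by edgeR's quasi-likelihood test), and chr6:124719735-124719825 from 0.585 to 3.41 CPM (2.69 log2 units, SE 0.63, adjusted p = 0.000917 by the same edgeR test). Of 4 near the Mir200a, Mir200b and Mir429 cluster (chr4:156053905-156055750), 2 were higher: chr4:156059247-156059418 by 1.64 log2 units (SE 0.33) and chr4:156063962-156064269 by 0.61 (SE 0.20). With 57.6% of all peaks passing in this comparison, 4 of 8 is near its background.

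Between 2 PWK/PhJ and 4 C57BL/6 EpiSC libraries 6 peaks near these clusters were tested and 3 passed, where 5.11% of all peaks did. In PWK/PhJ the peak chr4:156063962-156064178 was lower than in C57BL/6 (2.78 against 12.9 CPM, -2.29 log2 units, SE 0.40, adjusted p = 0.00319 by edgeR's quasi-likelihood test), while chr4:156059777-156060094 was higher (50.7 against 22.1 CPM, 1.19 log2 units, SE 0.31, adjusted p = 0.0379 by edgeR's quasi-likelihood test). Near Mir200c and Mir141, chr6:124716988-124717072 was lower (0.360 against 3.70 CPM, -3.55 log2 units, SE 0.91, adjusted p = 0.0336 by edgeR's quasi-likelihood test). Whether these calls hold with 1 library left out was not looked at. The effect of PWK/PhJ sequence differences on these counts was not tested.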
